A study of Mus musculus with 30 samples.

Results

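Mfsd2a, the lysophospholipid transporter of the blood-brain barrier, and 7 genes of fatty acid and lipoprotein handling (Cd36, Slc27a1, Fabp4, Fabp5, Lpl, Gpihbp1 and Vldlr) were followed through the RNA-seq libraries of a study on the culture of brain endothelial cells (ECs). These 8 genes were taken by name from 21820 protein-coding gene symbols, and estimated counts and TPM (a level scaled by transcript length and library total) were summed over the annotated transcripts of each. The study asked how ECs of the mouse brain change when they are cultured, and whether activating beta-catenin, the effector of canonical Wnt signaling, alters the cultured state. RNA-seq covered 14 libraries and ATAC-seq, which maps accessible chromatin, covered 10.

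All cells came from adult male mice. Acutely isolated ECs (2 libraries) were GFP-positive cells sorted from the brains of homozygous Tie2-GFP mice, in which the Tie2 promoter drives GFP, and the GFP-negative cells (2 libraries) were the non-endothelial fraction of the same genotype. For its adult brain ECs the study combined new data from cerebrum with earlier published data from cerebellum. WT cultures (6 libraries) were grown for 8 days after puromycin selection, which spares cells with P-glycoprotein. Replicates 1 and 2 came from C57BL/6J mice by isolation method A and were sequenced for 36 cycles. Replicates 3 to 6 came from Ctnnb1flex3/+;Tie2-GFP mice by method B. Of these, 3 and 4 were sequenced for 150 cycles at a different site and 5 and 6 for 36 cycles. These controls carry the allele that can be stabilized but no Cre, and had received 4-hydroxytamoxifen as pups. Stabilized cultures (4 libraries, 36 cycles) came from Ctnnb1flex3/+;Pdgfb-CreER;Tie2-GFP mice given the same agent, with replicates 1 and 2 by method A and 3 and 4 by method B. Sources differ on the isolation method of WT replicates 5 and 6, for which the methods text (B) was followed over a figure legend (A), so that values given by method are uncertain for these wells. For ATAC-seq the methods text gives method A to WT cultures 1 and 2, and method B to WT cultures 3 to 6 and both stabilized cultures. The Pdgfb promoter restricts CreER to ECs, and the recombined allele cannot be read from gene-level values. Each culture pooled several animals and its replicates are wells, a pair per experiment. The main comparisons of cultures have no term for experiment. Their p-values rest on the spread between wells and between experiments together, and count wells as independent. With 1 experiment per group, p-values measure the spread between wells only. For acutely isolated ECs against GFP-negative cells they rest on 2 sorted libraries per group.

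Mfsd2a carries docosahexaenoic acid, as a lysophospholipid, across the brain endothelium, and it also restrains transcytosis there. In tissues such as heart, muscle and fat, capillary ECs use another set of proteins. Gpihbp1 holds lipoprotein lipase (Lpl) on the luminal surface, Lpl frees fatty acids from lipoproteins, Cd36 and Slc27a1 take them up, and Fabp4 and Fabp5 bind them inside the cell.

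The libraries held 24284843 to 94686456 estimated counts. The summed TPM of 8 endothelial markers was 2822 to 2943 in acutely isolated ECs, 783 to 2149 in WT cultures, 1044 to 3707 in stabilized cultures and 7.14 to 19.4 in GFP-negative cells. Markers of microglia and macrophages (8 genes) summed to at most 5.80 in acutely isolated ECs and cultures, and the 4 adipocyte markers were at 0 in every acutely isolated and WT culture library. The 4 smooth muscle markers summed to 214 to 233 in acutely isolated ECs and 501 to 3068 in WT cultures. Of the 4, Acta2, Tagln and Cnn1 had higher means in WT cultures. Myh11 was lower there, at 1.68 TPM against 22.3 TPM in acutely isolated ECs. The 5 pericyte markers summed to 248 to 358 and at most 19.2 in the same acutely isolated ECs and in all cultures. The acutely isolated libraries also held the 3 erythrocyte markers (4751 and 31511). The 5 astrocyte markers summed to 466 and 87.2 there, of which Gja1 alone made up 464.5 and 65.9. In these libraries 3 and 2 of the 5 were under 1 TPM. Acutely isolated libraries were single reads and cultured ones paired reads, so read type and culture cannot be told apart, and in bulk RNA fewer cells of a type and less RNA per cell cannot be told apart either.

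In acutely isolated ECs, Mfsd2a stood above the other 7 genes. Its mean level was 261 TPM, against 7.61 TPM for Slc27a1, 2.37 for Lpl and at most 0.603 for Fabp4, Gpihbp1, Vldlr, Fabp5 and Cd36. In WT cultures that order was not kept. Fabp5 (18.2 TPM), Slc27a1 (16.0), Fabp4 (12.4), Gpihbp1 (9.14) and Vldlr (5.76) had the highest means, with ranges over wells in which each neighbour overlapped the next, and Mfsd2a followed at 1.94 TPM with a range below that of Vldlr. Lpl (0.245 TPM) and Cd36 (0.0538) were lowest and overlapped each other.

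**Figure D1:**
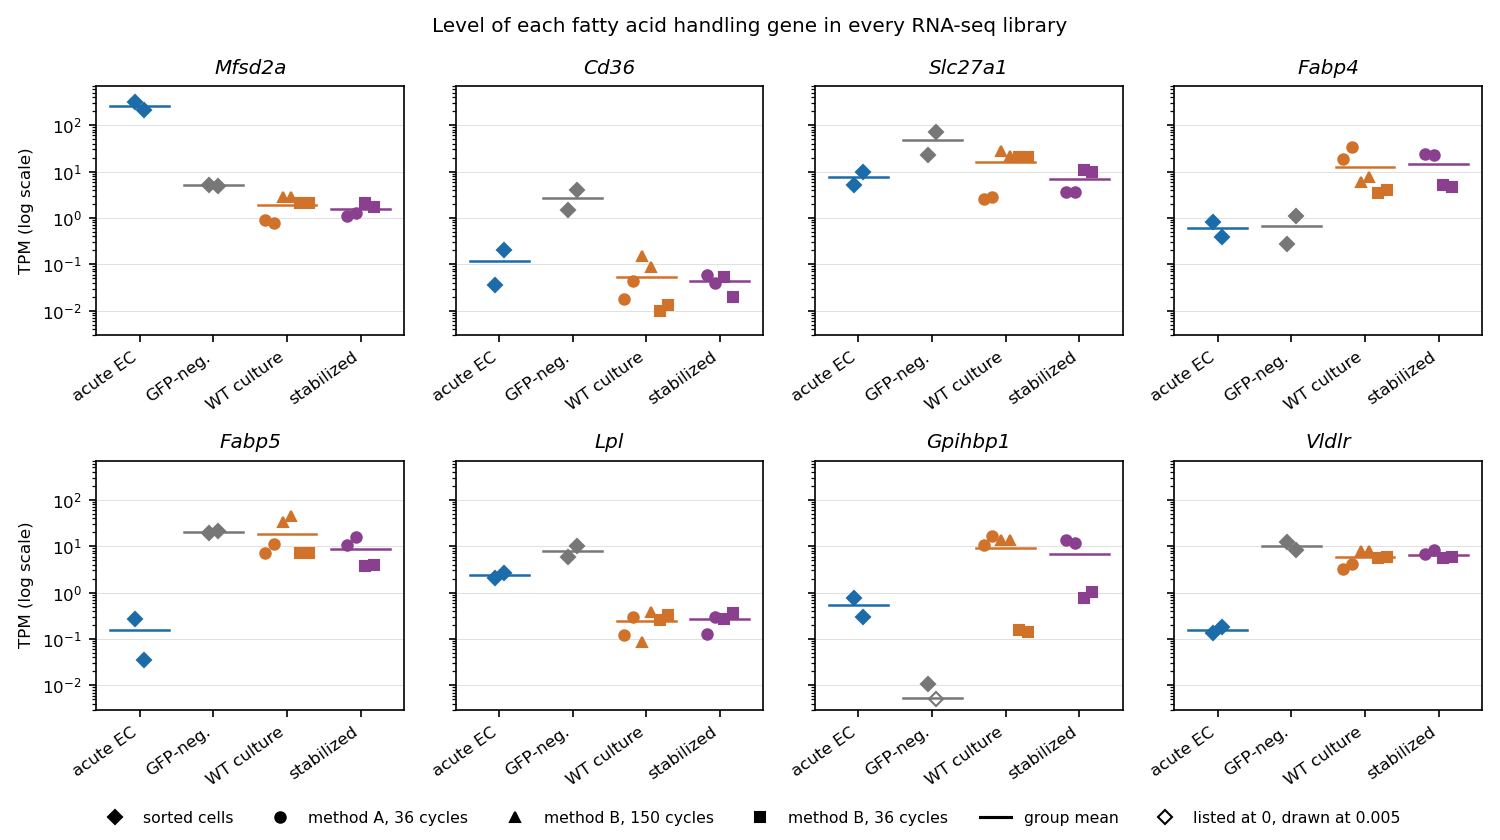
TPM of each gene (log axis) in every RNA-seq library by group, with symbols for isolation method and read length, bars at group means and an open symbol for the GFP-negative library in which Gpihbp1 is listed at 0. Mfsd2a is at 209.7 and 312 TPM in acutely isolated ECs and at or below 5.08 TPM in every other library, while Fabp5 and Vldlr are lowest in the acutely isolated ECs.

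Mfsd2a (ENSMUSG00000028655.11, GRCm38 chr4:122946850-122961188, minus strand) was at 312 and 209.7 TPM in the acutely isolated ECs, from 48771 and 23574 counts. WT cultures ranged from 0.760 to 2.88 TPM with a median of 2.11, and the stabilized cultures were at 1.08, 1.29, 2.10 and 1.68 TPM. The GFP-negative cells were at 5.08 and 4.97 TPM. The acutely isolated ECs were thus above all other libraries, with no overlap. In WT cultures Mfsd2a fell (log2 fold change −7.46, SE 0.48, adjusted p = 3.281e-05, from the quasi-likelihood test of edgeR and adjusted over all tested genes by Benjamini-Hochberg), from 261 ± 72.0 (SD, n = 2) to 1.94 ± 0.92 TPM (SD, n = 6). The acutely isolated ECs were higher than GFP-negative cells by 5.23 (SE 0.55, adjusted p = 0.002426). The stabilized cultures were lower than acutely isolated ECs by a similar amount (−7.50, SE 0.63, adjusted p = 0.0002705), a comparison that shares the 2 acutely isolated libraries with the first. Without any single library the fold change of WT cultures stayed between −7.78 and −7.11.

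The protein-coding transcript Mfsd2a-201 made up 83.6 to 100% of the TPM of Mfsd2a in WT cultures and 92.4 and 54.8% in the acutely isolated libraries. The short noncoding Mfsd2a-203, of 356 bases, reached 36.9% in 1 of the latter. In 1 GFP-negative library 92.7% of the TPM was assigned to the noncoding Mfsd2a-204. Short transcripts weigh heavily in a sum of TPM, and with an offset for transcript length the fold change in WT cultures was −7.81 (adjusted p = 2.971e-05).

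Within 10 kb of Mfsd2a, 5 open regions were found, and both of those present in the acutely isolated ECs were also found in all 6 WT cultures and both stabilized cultures. The region at the promoter, 32 bases upstream of the gene's start, had a fold enrichment (peak height over local background, as MACS2 gave it) of 11.3 and 9.12 in acutely isolated ECs. It had 4.43 to 9.31 in WT cultures and 6.54 and 5.66 in stabilized cultures. The groups overlapped through WT culture 5 (9.31) alone, with every other culture at 8.025 or lower. The −log10 q of this region did not overlap, at 120.1 and 75.4 in acutely isolated ECs and 5.74 to 65.1 in cultures. The intronic region 5597 bases into the gene had a fold enrichment of 12.6 and 11.2 in acutely isolated ECs, 9.44 to 16.0 in WT cultures and 12.4 and 12.6 in stabilized cultures. Its −log10 q was also higher in acutely isolated ECs (320.5 and 226.2 against 29.6 to 208.6 in cultures), although its fold enrichment was not. The other 3 regions, 710 and 1777 bases upstream and 16586 bases downstream of the start, had peaks in 1 to 3 WT cultures and none in acutely isolated ECs, and the one 710 bases upstream also had a peak in 1 stabilized culture. With a −log10 q of at least 10, the promoter and intronic regions alone remained, and the start had a peak in 9 of 10 libraries. Peak presence within 10 kb says nothing of regions farther away. Accessibility and RNA were measured in different wells.

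The promoter of Mfsd2a (250 bases before the start in the RefSeq table of GRCm38, chr4:122961189-122961438, minus strand) and the centre of its intronic open region (chr4:122955491-122955690, minus strand) are shown because they stayed accessible where the transcript was low. Capitals mark a TCF/LEF core, CTTTGA, in the promoter and an SP/KLF core, GGGCGG, in the intron, each searched on both strands.
Mfsd2a promoter: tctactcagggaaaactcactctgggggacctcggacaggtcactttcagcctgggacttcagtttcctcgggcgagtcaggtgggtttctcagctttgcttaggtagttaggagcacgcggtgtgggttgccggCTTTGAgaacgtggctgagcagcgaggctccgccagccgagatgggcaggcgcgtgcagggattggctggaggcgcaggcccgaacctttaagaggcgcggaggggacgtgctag
Mfsd2a intron: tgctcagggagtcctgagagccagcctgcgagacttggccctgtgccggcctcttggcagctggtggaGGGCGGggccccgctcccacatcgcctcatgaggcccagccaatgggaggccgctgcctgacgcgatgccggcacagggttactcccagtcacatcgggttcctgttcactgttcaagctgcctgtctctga
The promoter holds 17 CpG dinucleotides, against a median of 6 over all promoters, and CTTTGA starts at base 136 of the 250. CTTTGA was found in 13.8% of 32817 promoter windows of this length, and GGGCGG in 12.6% of 125950 open regions read over 200 bases. A match describes the letters of a window and is not a measured binding site.

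Cd36 and Slc27a1 stand at uptake. Cd36 (ENSMUSG00000002944.15, chr5:17781690-17888801), a scavenger receptor that takes up long-chain fatty acids, was close to the limit of detection in every EC library. It was at 0.0361 and 0.202 TPM in acutely isolated ECs (16 and 40 counts) and from 0.00991 to 0.152 TPM in WT cultures with a median of 0.0305 (1 to 10 counts). The stabilized cultures were at 0.0595 TPM or lower, and GFP-negative cells at 1.45 and 4.06 TPM. GFP-negative cells did not overlap with the acutely isolated ECs, whose difference from them (−3.57, SE 0.94, adjusted p = 0.03452) passed the test on p but not the minimum of 5 TPM. The difference of WT cultures from acutely isolated ECs did not pass (−2.29, SE 0.88, adjusted p = 0.06025). Stabilized cultures were lower on the adjusted p (−3.09, SE 0.70, adjusted p = 0.009552), with TPM that overlapped the acutely isolated ECs. A higher level of Cd36 in cultured ECs was not detectable at this depth.

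ATAC-seq peaks at the Cd36 locus were found in cultured ECs. No peak was called in either acutely isolated library, while peaks in an intron, 8739 and 11989 bases from the gene start, were called in all 6 WT cultures and both stabilized cultures. Their fold enrichment was 5.43 to 9.89 and 4.84 to 17.1 in WT cultures, and 8.71 and 7.69, and 15.2 and 13.4, in stabilized cultures. At a stricter threshold (−log10 q of at least 10) neither region was open in all WT cultures. The centre of the first (GRCm38, chr5:17879962-17880161, minus strand) is shown because it was open in each culture of a gene that stayed near 0. Capitals mark CTTTGA on the opposite strand and 2 AP-1 cores, TGANTCA.
Cd36 intron: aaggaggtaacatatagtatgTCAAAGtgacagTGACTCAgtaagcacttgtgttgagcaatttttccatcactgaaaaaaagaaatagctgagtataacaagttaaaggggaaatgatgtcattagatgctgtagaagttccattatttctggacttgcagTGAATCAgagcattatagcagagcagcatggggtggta
TGANTCA was found in 25.1% and CTTTGA in 13.3% of open regions read over 200 bases.

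Slc27a1 (ENSMUSG00000031808.7, chr8:71568882-71587302), a fatty acid transport protein that couples uptake to acyl-CoA formation, was at 5.25 and 9.96 TPM in acutely isolated ECs and at 22.7 and 73.0 TPM in GFP-negative cells. WT cultures ranged from 2.51 to 27.4 TPM with a median of 20.5, and the stabilized cultures were at 3.64, 3.69, 10.7 and 9.74 TPM. The spread in culture followed the experiment. The 2 WT wells of method A were at 2.51 and 2.88 TPM, below both acutely isolated libraries, and the 4 wells of method B were at 20.2 to 27.4, above both. Pooled, the difference of WT cultures from acutely isolated ECs did not pass the test (0.85, SE 0.89, adjusted p = 0.4598). In the wells of method A alone Slc27a1 was lower than in acutely isolated ECs (log2 fold change −1.30, adjusted p = 0.02399), and in those of method B the difference was 1.33 (adjusted p = 0.1024). The acutely isolated ECs were lower than GFP-negative cells (log2 fold change −2.57, SE 0.46, adjusted p = 0.01094), a call lost without GFP-negative replicate 2 (adjusted p = 0.06818), with limma on log2(TPM + 1) (adjusted p = 0.08676) and with all 14 libraries in 1 fit (adjusted p = 0.09222).

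The total of Slc27a1 adds up unlike transcripts. The retained-intron transcript Slc27a1-205 took 24.0 to 55.6% of its TPM in WT cultures and 33.4 to 55.3% in stabilized cultures, and none in sorted cells. Transcripts of Slc27a1 also share short stretches with other genes, the longest being 95.2% of 167 bases with Slc3a2. Part of the reads may thus have been assigned to the wrong gene, and what this adds to the levels of Slc27a1 was not tested. The start region of Slc27a1, 1609 bases into the gene, was open in all acutely isolated and WT culture libraries (12.2 and 11.7 against 4.44 to 15.2). A region 10332 bases into the gene, within 1 kb of an annotated internal start, was open in all 6 WT cultures (4.03 to 12.1) and both stabilized cultures (6.40 and 8.73), with no peak in acutely isolated ECs.

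Fabp4 and Fabp5 bind fatty acids in the cytosol. Fabp4 (ENSMUSG00000062515.3, chr3:10204088-10208576), the form typical of fat and of peripheral capillaries, was at 0.811 and 0.394 TPM in acutely isolated ECs and at 0.269 and 1.08 TPM in GFP-negative cells. WT cultures ranged from 3.47 to 34.3 TPM with a median of 6.77, and the stabilized cultures were at 24.1, 23.2, 5.16 and 4.73 TPM. Every culture was above every sorted library. WT cultures were higher than acutely isolated ECs by 3.71 (SE 1.34, adjusted p = 0.04847) and stabilized cultures by 3.44 (SE 0.78, adjusted p = 0.009412), but both failed the minimum of 5 TPM in every well. In the wells of method A alone, at 18.9 and 34.3 TPM, all 3 criteria were met (4.95, adjusted p = 0.008579). With either acutely isolated library left out, the pooled test was not passed (adjusted p = 0.109 and 0.2226).

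Fabp5 (ENSMUSG00000027533.10, chr3:10012548-10016607), a related binding protein that is widely expressed, was at 0.274 and 0.0344 TPM in the acutely isolated ECs, from 31 and 2 counts. GFP-negative cells were at 19.2 and 21.4 TPM and WT cultures from 7.08 to 44.1 TPM with a median of 9.04. The stabilized cultures were at 10.9, 16.1, 3.75 and 3.96 TPM. Fabp5 was thus low in acutely isolated ECs and present in all other libraries. In WT cultures it rose by 5.54 (SE 1.03, adjusted p = 0.002883) and it was lower in acutely isolated ECs than in GFP-negative cells (log2 fold change −6.54, SE 1.19, adjusted p = 0.01146). In stabilized cultures its difference of 4.53 (SE 0.94, adjusted p = 0.00665) included wells under 5 TPM. The size of the rise rests on few counts and was 8.16 without acutely isolated replicate 1 and 4.69 without replicate 2. The processed pseudogene Gm6166, which shares 98.3% of 409 bases with Fabp5, was assigned 0 counts in acutely isolated ECs and up to 136.8 elsewhere, so part of the reads of one may have been assigned to the other.

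The starts of both genes on chromosome 3 differed in accessibility. A peak 8 bases upstream of the start of Fabp5 was called in all libraries, with a fold enrichment of 6.36 and 5.09 in acutely isolated ECs, 11.0 to 16.5 in WT cultures and 12.7 and 11.5 in stabilized cultures. A peak 96 bases upstream of Fabp4 was called in the 4 WT cultures of method B (4.26 to 5.54) and in no other library. Both stabilized ATAC-seq cultures were of method B too and lacked it, with lists of 80075 and 79160 peaks. The RNA level of Fabp4 was nevertheless higher in the wells of method A. The peak lists of WT cultures 1 and 2 hold 50450 and 33152 peaks, against 84560 to 98840 in WT cultures 3 to 6, and the part of this difference in the missing peaks was not tested. The start of Fabp5 (GRCm38, chr3:10012440-10012547, plus strand, from the outer part of the 200-base centre up to the gene start) is shown because it was open in acutely isolated ECs, where the transcript was near 0. Capitals mark GGGCGG.
Fabp5 start: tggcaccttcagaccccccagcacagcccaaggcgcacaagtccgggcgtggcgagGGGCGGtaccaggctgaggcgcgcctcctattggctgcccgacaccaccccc
This stretch has a GC content of 71.3% and 8 CpG dinucleotides.

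Lpl, Gpihbp1 and Vldlr act on lipoproteins. Lpl (ENSMUSG00000015568.16, chr8:68880491-68907448), the lipase itself, was at 2.10 and 2.63 TPM in acutely isolated ECs and at 5.80 and 9.97 TPM in GFP-negative cells. WT cultures ranged from 0.0865 to 0.375 TPM with a median of 0.280, and no stabilized culture exceeded 0.356 TPM. The cultures were below the acutely isolated ECs with no overlap. The difference in WT cultures (−3.74, SE 0.61, adjusted p = 0.001628) passed on p, and the level of acutely isolated ECs was under the minimum of 5 TPM. In these ECs 70.1 to 81.6% of the TPM of Lpl was assigned to the retained-intron transcript Lpl-202, which had none in cultures, and 18.4 to 28.7% to the coding Lpl-201. The acutely isolated ECs were lower than GFP-negative cells (log2 fold change −1.76, SE 0.46, adjusted p = 0.0324), a call that was lost without GFP-negative replicate 1 or 2 or acutely isolated replicate 2 (adjusted p = 0.1209, 0.2125 and 0.06777). It was also lost with an offset for transcript length (adjusted p = 0.132), with limma (adjusted p = 0.2401) and with all 14 libraries in 1 fit (adjusted p = 0.09307). At the start of Lpl, 134 and 908 bases into the gene, no peak was called in acutely isolated ECs. Peaks were called there in 4 and 5 WT cultures and in both stabilized cultures, although the RNA was lower in cultures. With a −log10 q of at least 10, the start had a peak in 4 libraries.

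Gpihbp1 (ENSMUSG00000022579.10, chr15:75596628-75599481), the endothelial anchor of Lpl, was at 0.756 and 0.300 TPM in acutely isolated ECs, from 63 and 12 counts. GFP-negative cells held 1 count in both libraries together. Relative to library totals this is a ratio of 63.8, with a 95% interval of 11.1 to 2551 that covers counting error only. All of the TPM in acutely isolated ECs was assigned to Gpihbp1-204, a coding transcript of 466 bases, while Gpihbp1-201 took 71.2 to 92.3% in WT cultures. The 6 WT cultures were at 10.9, 16.3, 13.4, 13.98, 0.155 and 0.143 TPM, and the stabilized cultures at 13.8, 11.7, 0.776 and 1.05 TPM. The wells thus fell apart by experiment. Replicates 5 and 6 (method B, 36 cycles) were below both acutely isolated libraries and the other 4 were above. Pooled, the test was not passed (3.38, SE 1.79, adjusted p = 0.1518), and in the wells of method A alone Gpihbp1 rose by 4.41 (adjusted p = 0.01216).

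A region 3486 bases upstream of Gpihbp1 was open in all 8 ATAC-seq cultures, with a fold enrichment of 7.26 to 19.6 in WT cultures and 14.5 and 15.9 in stabilized cultures. In acutely isolated ECs it had 3.05 in 1 library and no peak in the other. This region was at 16.5 and 19.6 in WT cultures 5 and 6, but ATAC-seq and RNA-seq wells are not tied to each other by their labels. Its centre (GRCm38, chr15:75593042-75593241, plus strand) is shown as the strongest region of the gene whose transcript varied most between cultures. Capitals mark the TEAD core GGAATG, then the TCF/LEF core CTTTGA. The last capitals are the ETS core, CGGAAG on the opposite strand.
Gpihbp1 upstream: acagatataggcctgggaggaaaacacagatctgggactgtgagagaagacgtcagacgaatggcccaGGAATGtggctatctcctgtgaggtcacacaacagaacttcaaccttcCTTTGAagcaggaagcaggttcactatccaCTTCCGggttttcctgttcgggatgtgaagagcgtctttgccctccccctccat
These cores were found in 17.1%, 13.3% and 7.60% of all open regions read over 200 bases.

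Vldlr (ENSMUSG00000024924.14, chr19:27216484-27254231), the receptor for very low density lipoproteins and for reelin, was at 0.136 and 0.181 TPM in acutely isolated ECs and at 12.2 and 8.17 TPM in GFP-negative cells. WT cultures ranged from 3.18 to 7.99 TPM with a median of 5.73, and the stabilized cultures were at 6.83, 8.11, 5.64 and 5.96 TPM. No culture overlapped with the acutely isolated ECs. Stabilized cultures rose by 3.73 (SE 0.37, adjusted p = 0.0004326). WT cultures differed by 3.40 (SE 0.49, adjusted p = 0.0009326) but included wells under 5 TPM, and those of method B alone passed all criteria (3.51, adjusted p = 0.003816). The acutely isolated ECs were lower than GFP-negative cells (log2 fold change −5.77, SE 0.68, adjusted p = 0.00329). At the start of Vldlr, 446 bases into the gene, a peak was called in no acutely isolated library, in 5 of 6 WT cultures (4.82 to 6.12) and in both stabilized cultures (5.07 and 5.70).

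**Figure D2:**
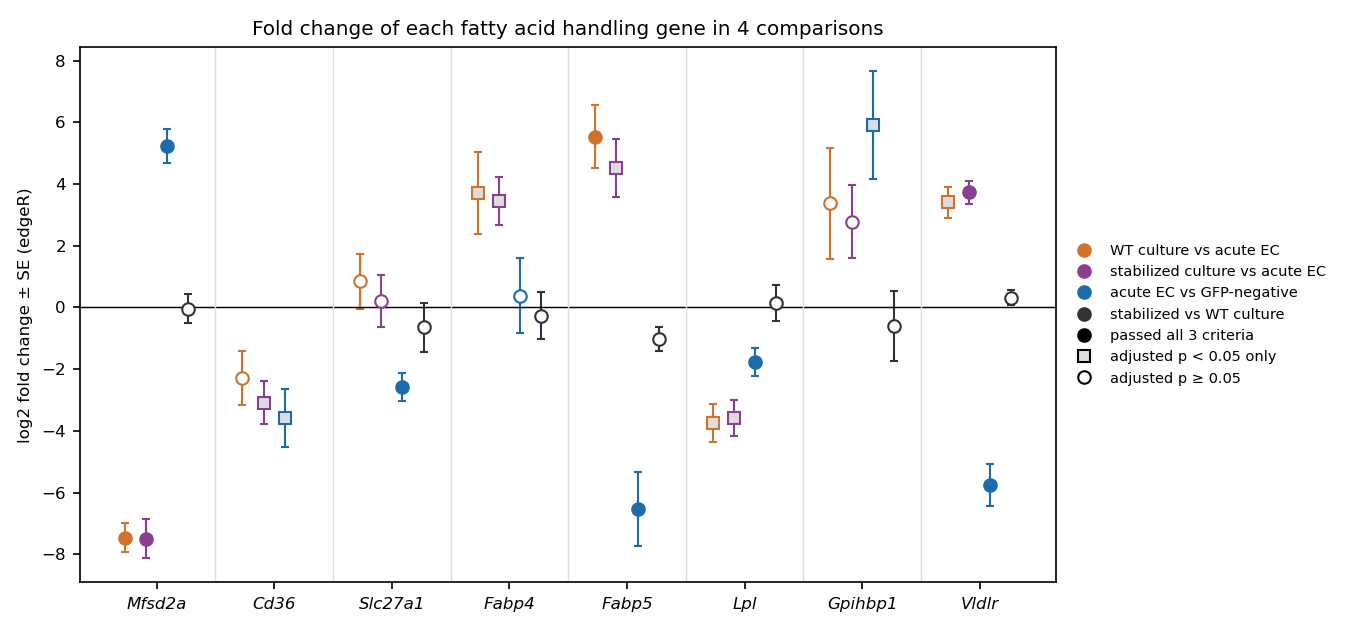
Log2 fold change with its SE (edgeR) of each gene in the 4 comparisons; filled circles passed all 3 criteria, grey squares the adjusted p alone and open circles neither. Mfsd2a is at −7.46 in WT cultures against acutely isolated ECs, where Fabp5 is at 5.54, and no gene passed in stabilized against WT cultures.

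Counted together, 1 of the 8 genes (Fabp5) was called higher and 1 (Mfsd2a) lower in WT cultures than in acutely isolated ECs, where 13.5% of 13784 tested genes were called higher and 10.2% lower. The 1866 higher and 1409 lower genes became 1782 and 1815 with an offset for transcript length, 2149 and 1193 with library size scaling and 1733 and 897 with limma on log2(TPM + 1). On the adjusted p alone 3 were higher (23.9% of all) and 2 lower (21.3%), and 5 of 8 did not overlap between the groups, against 48.4% of all tested genes. Their median log2 fold change was 2.11, against 0.10 over all tested genes. Compared with GFP-negative cells, 1 gene (Mfsd2a) was called higher in acutely isolated ECs and 4 (Slc27a1, Fabp5, Lpl and Vldlr) lower, where 8.30% and 7.56% of 15102 genes were called. The 1254 higher and 1142 lower genes became 930 and 1419 with library size scaling, 657 and 897 with an offset for transcript length and 460 and 887 with limma on log2(TPM + 1). On the adjusted p alone 2 were higher (Mfsd2a and Gpihbp1, 9.93% of all) and 5 lower (19.7%). Here 7 of 8 did not overlap, against 57.2% of all, and their median was −2.17 against −0.06. Stabilized cultures against acutely isolated ECs gave 1 gene higher (Vldlr) and 1 lower (Mfsd2a), where 15.1% and 11.0% of 13888 were called, and on the adjusted p alone 3 were higher (28.9% of all) and 3 lower (27.8%). Here 6 of 8 did not overlap, against 56.4% of all. Here 2091 genes were called higher and 1527 lower, and limma on log2(TPM + 1) gave 2211 and 761.

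Of 34 open regions within 10 kb of the 8 genes, 26 had no peak in either acutely isolated library and 23 were open in both stabilized cultures. The shares of all regions for these counts were not taken, so neither count is a result about the 8 genes. Regions open in all WT cultures and in no acutely isolated library numbered 6 (2 at Cd36, 3 at Slc27a1, 1 at Vldlr), against 8.09% of 126319 regions. With a −log10 q of at least 10 this became 1 at Slc27a1, 1 at Gpihbp1 and 0 at Cd36 and Vldlr. Of the 3 at Slc27a1 without that threshold, 1 has its summit in the coding gene Pgls, 27215 bases from the start of Slc27a1. In all, 5 regions were open in all acutely isolated and WT culture libraries, against 13.4%. None was open in both acutely isolated libraries and no WT culture, against 2.94%. The peak lists of acutely isolated ECs were shorter (37453 and 31844 peaks) than those of most cultures (33152 to 98840), and the depth behind them is unknown. With 2 libraries against 6 no test was made.

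**Figure D3:**
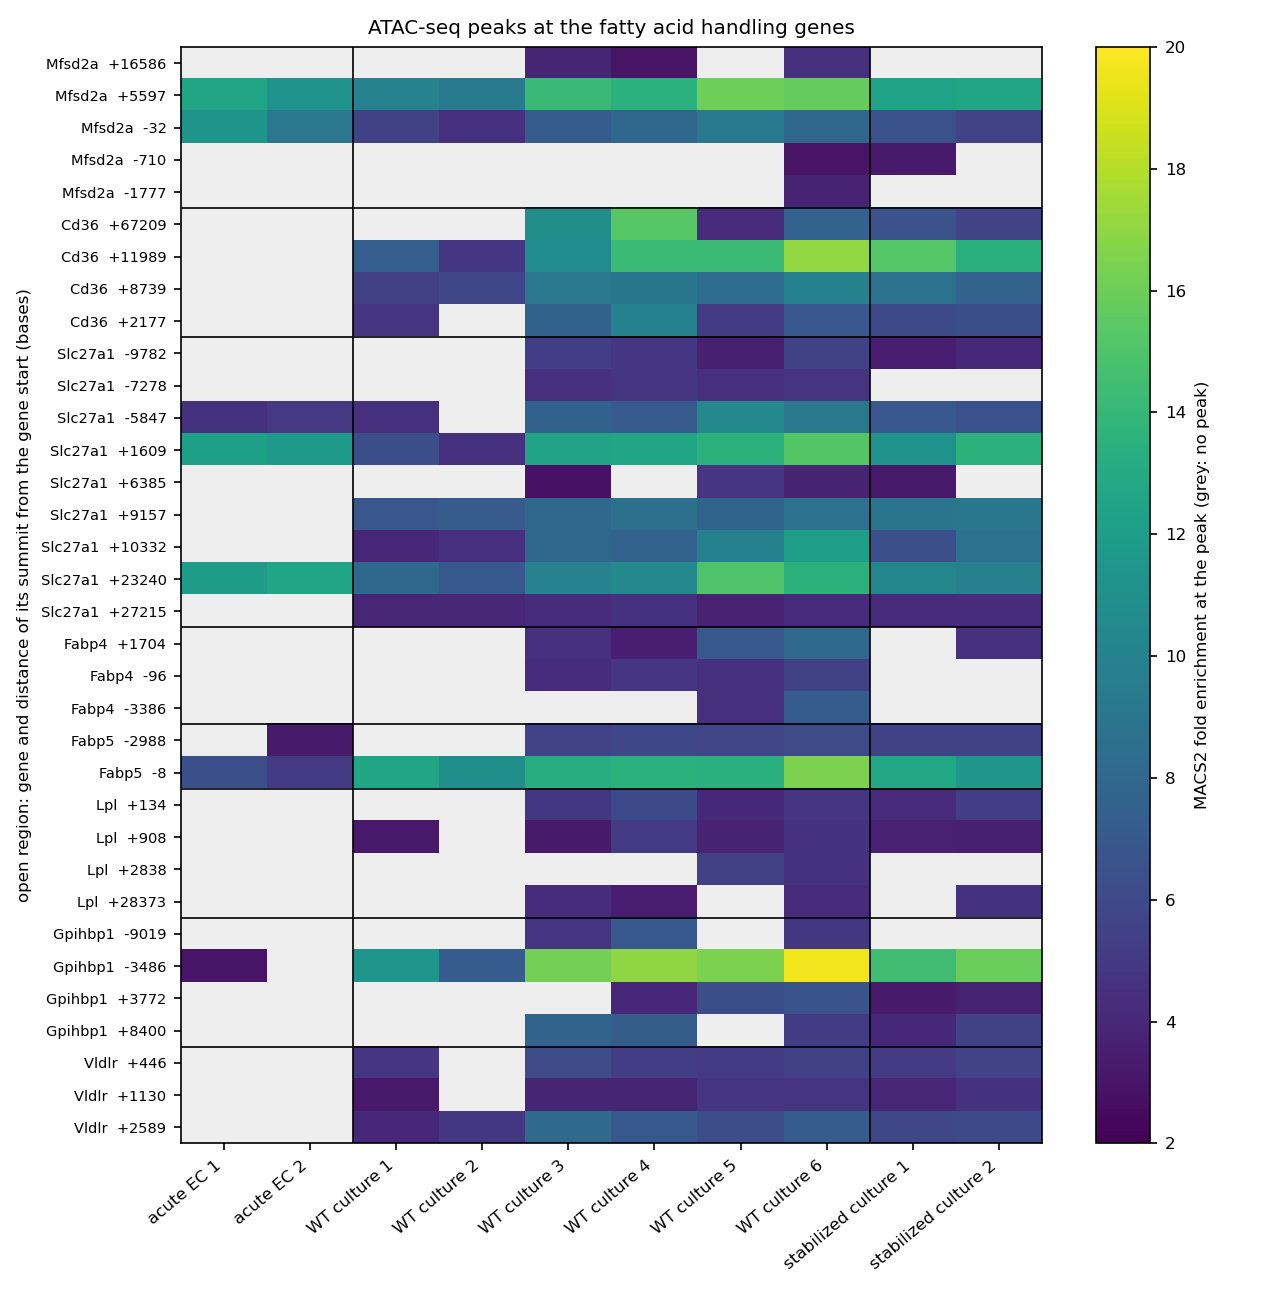
Fold enrichment of the ATAC-seq peak at each of 34 open regions (rows, named by gene and distance of the summit from the gene start in bases) in 10 libraries (columns), grey where no peak was called. Both Mfsd2a regions of acutely isolated ECs are coloured across all libraries, while Cd36, Fabp4, Lpl and Vldlr have peaks in cultures and none in acutely isolated ECs.

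In the fit of all 10 cultures, which has no term for isolation method, none of the 8 genes was called between stabilized and WT cultures. Of 12958 tested genes edgeR called 0 (0% higher and 0% lower), while 1344 had an unadjusted p under 0.05 and DESeq2 called 16. Over the libraries of 36 cycles, within method A 692 genes were called higher and 118 lower, Fabp4 among the latter, within method B 138 and 36, and with method as a covariate 66 and 10. Among the 7 genes tested (Cd36 had too few counts) edgeR gave an unadjusted p under 0.05 for Fabp5 (−1.02, SE 0.39, adjusted p = 0.4452). Fabp5 was at 18.2 ± 16.1 TPM (SD, n = 6) in WT and 8.67 ± 5.95 TPM (SD, n = 4) in stabilized cultures. Mfsd2a was at 1.54 ± 0.45 TPM (SD, n = 4) in stabilized and 1.94 ± 0.92 TPM (SD, n = 6) in WT cultures, a difference of −0.04 (SE 0.46, adjusted p = 0.9799). None of the 8 genes was without overlap, against 0.725% of all tested genes.

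The spread behind this comparison lay between experiments. Across the 3 WT experiments Slc27a1, Fabp4, Fabp5 and Gpihbp1 were called different, where 36.7% of 13050 genes were called. The largest log2 difference between experiments was 6.49 for Gpihbp1 (adjusted p = 4.167e-09), 3.15 for Slc27a1 (adjusted p = 1.408e-08), 2.98 for Fabp4 (adjusted p = 2.27e-08) and 1.41 for Fabp5 (adjusted p = 1.061e-05). Mfsd2a and Lpl differed by 1.42 and 1.86 (adjusted p = 0.0002174 and 0.006672) at levels under the minimum of 5 TPM, and Vldlr by 0.90 (adjusted p = 1.784e-05), under the minimum fold. Replicates 1 and 2 differ from 5 and 6 in isolation method and genotype, and replicates 3 and 4 differ from 5 and 6 in read length and facility. Within each of these contrasts the factors cannot be told apart. For Gpihbp1 the log2 difference was −6.49 for replicates 5 and 6 over 1 and 2, and 5.35 for replicates 3 and 4 over 5 and 6. The sum of the smooth muscle markers moves with them too, and its part was not tested. It was 501 and 561 in method A, 2023 and 2178 in the 150-cycle wells and 3049 and 3068 in the 36-cycle wells of method B. Myh11, 1 of the 4 markers, was at most 3.11 TPM in WT cultures.

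Within each method, stabilized wells differed from WT wells in opposite directions for Gpihbp1 and Fabp4 when counts were compared. Over the 8 libraries of 36 cycles, the term for stabilization by method passed for Gpihbp1 (3.73, SE 0.34, adjusted p = 0.0001314), Fabp4 (1.56, SE 0.17, adjusted p = 0.0002734) and Slc27a1 (−0.58, SE 0.16, adjusted p = 0.01382), where 49.6% of 13356 genes passed. Gpihbp1 was lower in the stabilized wells of method A (log2 fold change −0.86, 13.8 and 11.7 against 10.9 and 16.3 TPM, adjusted p = 0.002976), where the TPM of the arms overlap. In method B it was higher by 2.85 (0.776 and 1.05 against 0.155 and 0.143 TPM, adjusted p = 0.002776). Fabp4 was lower in method A (−1.03, 24.1 and 23.2 against 18.9 and 34.3 TPM, which overlap too, adjusted p = 0.001133), where it met all 3 criteria, and higher by 0.51 in method B (5.16 and 4.73 against 3.47 and 3.93 TPM, adjusted p = 0.02352). Slc27a1 was lower in method B (−0.90, 10.7 and 9.74 against 20.8 and 20.2 TPM, adjusted p = 0.0009071). Its difference of −0.31 on counts in method A did not pass (adjusted p = 0.1278), and on TPM it was higher there (3.64 and 3.69 against 2.51 and 2.88). Mfsd2a in method A was likewise lower on counts (−0.27, adjusted p = 0.4221) and higher on TPM (1.08 and 1.29 against 0.914 and 0.760). For these 2 genes the TPM of the arms did not overlap in method A. Fabp5 in method A was lower on counts (−0.25, adjusted p = 0.2951), with 10.90 and 16.1 against 7.12 and 10.95 TPM, which overlap. In method B it was lower on both (−0.80, 3.75 and 3.96 against 7.12 and 7.08 TPM, adjusted p = 0.004106). For Fabp5, Lpl, Mfsd2a and Vldlr the term did not pass (adjusted p = 0.08363, 0.07458, 0.6008 and 0.3109). On log2(TPM + 1) in place of counts, a setting chosen after the data were seen, limma gave 0.45 for Fabp4 (adjusted p = 0.2712), so that its call was lost, 0.79 for Gpihbp1 (adjusted p = 0.03538) and −1.28 for Slc27a1 (adjusted p = 0.001929), and the term passed for Fabp5 (−1.27, adjusted p = 0.008474) and Vldlr (−0.85, adjusted p = 0.01453). Each of these values rests on 2 wells per arm, and the WT wells of method A and B differ in genotype.

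**Figure D4:**
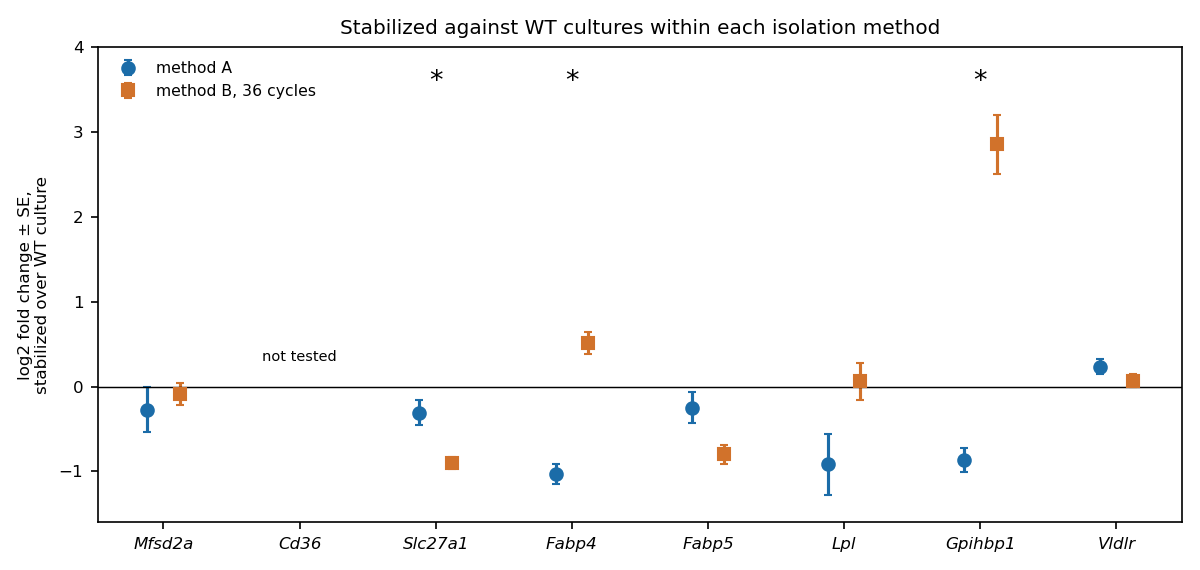
Log2 fold change with its SE of stabilized over WT cultures for each gene within method A (circles) and within the 36-cycle wells of method B (squares); an asterisk marks an adjusted p under 0.05 for the difference between methods, and Cd36 was not tested. Gpihbp1 lies at −0.86 in method A and 2.85 in method B, and Mfsd2a at −0.27 and −0.09, all on counts. In method A the TPM of Mfsd2a and Slc27a1 went the other way without overlap. That of Fabp5 was 10.90 and 16.1 in stabilized and 7.12 and 10.95 in WT wells, which overlap.

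The other genes of the pathway were taken from 5 lists. In WT cultures against acutely isolated ECs 13.5% of all tested genes were called higher and 10.2% lower, and a list whose share lies near these gives no result about the list. Among 15 genes of uptake and activation, of which 10 were tested in WT cultures against acutely isolated ECs, 1 rose and 2 fell, with a median log2 fold change of 0.26 against 0.10 over all genes. These are acyl-CoA synthetases, which trap fatty acids as acyl-CoA. Acsl4, which prefers arachidonic acid, rose by 1.61 (adjusted p = 0.008362), and Acsl3 and Acsl1 fell by 2.53 and 1.76 (adjusted p = 0.001273 and 0.0009149). Acsl3 was at 44.7 TPM in acutely isolated ECs and 6.67 TPM in WT cultures. The call of Acsl4 was lost without acutely isolated replicate 1 (adjusted p = 0.06619), with an offset for transcript length (0.78, adjusted p = 0.227) and with limma (adjusted p = 0.1016).

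Of 18 genes of beta-oxidation, which burns fatty acids in mitochondria, 1 rose and 1 fell with a median of 0.31. Acads, the short-chain acyl-CoA dehydrogenase, rose by 2.81 (adjusted p = 0.0002806), from 1.40 to 20.9 TPM. Cpt1a, which admits long-chain fatty acids to mitochondria, was called lower on counts (−1.36, adjusted p = 0.01148), although its TPM was 27.9 and 28.3, and with an offset for transcript length the call was lost (−0.59, adjusted p = 0.1852), as it was without acutely isolated replicate 1 (adjusted p = 0.0644). The other 16 members did not pass all criteria.

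Of 13 genes of lipid storage and lipolysis 11 were tested, 3 rose and 1 fell, and the median was 0.49. Plin2, the coat protein of lipid droplets, rose by 3.72 (adjusted p = 0.0004633), from 19.6 ± 6.63 (SD, n = 2) to 226 ± 42.3 TPM (SD, n = 6). Dgat1, which makes triglycerides, rose by 2.18 (adjusted p = 0.01488) and Hilpda, an inhibitor of lipolysis, by 1.19 (adjusted p = 0.03294). The calls of Dgat1 and Hilpda were lost without acutely isolated replicate 1 (adjusted p = 0.1133 and 0.1919), and that of Hilpda also without any one of WT cultures 3 to 6 (adjusted p = 0.05416 to 0.05945). Mgll, the monoglyceride lipase, was called lower on counts (−1.49, adjusted p = 0.009363), while its TPM was 17.9 in acutely isolated ECs and 22.5 in WT cultures, and with an offset for transcript length its call was lost (−0.49, adjusted p = 0.2216).

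Lipoprotein handling went both ways, with 1 gene higher and 2 lower of 10 tested (12 listed) and a median of −0.39. Angptl4, an inhibitor of Lpl, rose by 4.18 (adjusted p = 0.002919), from 11.3 ± 3.19 (SD, n = 2) to 300 ± 209 TPM (SD, n = 6). Lrp8, like Vldlr a receptor for reelin, fell by 4.78 (adjusted p = 1.509e-05), from 56.2 to 4.57 TPM, and Lrp1, a large scavenging receptor, fell by 1.72 (adjusted p = 0.03008). Lrp1 was lost without either acutely isolated library or WT culture 1 (adjusted p = 0.1457, 0.06288 and 0.05289).

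Among 7 regulators 1 fell and the median was −2.39. Ppard, a nuclear receptor that fatty acids activate, fell by 4.36 (adjusted p = 0.003309), with 39.3 and 208.6 TPM in acutely isolated ECs and 2.63 ± 1.33 TPM (SD, n = 6) in WT cultures. Its relative Pparg, the regulator of Fabp4 and Cd36 in fat, was at 0.0249 TPM in acutely isolated ECs and 2.39 TPM in WT cultures (6.76, adjusted p = 0.002494), under the minimum of 5 TPM. It is named after its values were seen.

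**Figure D5:**
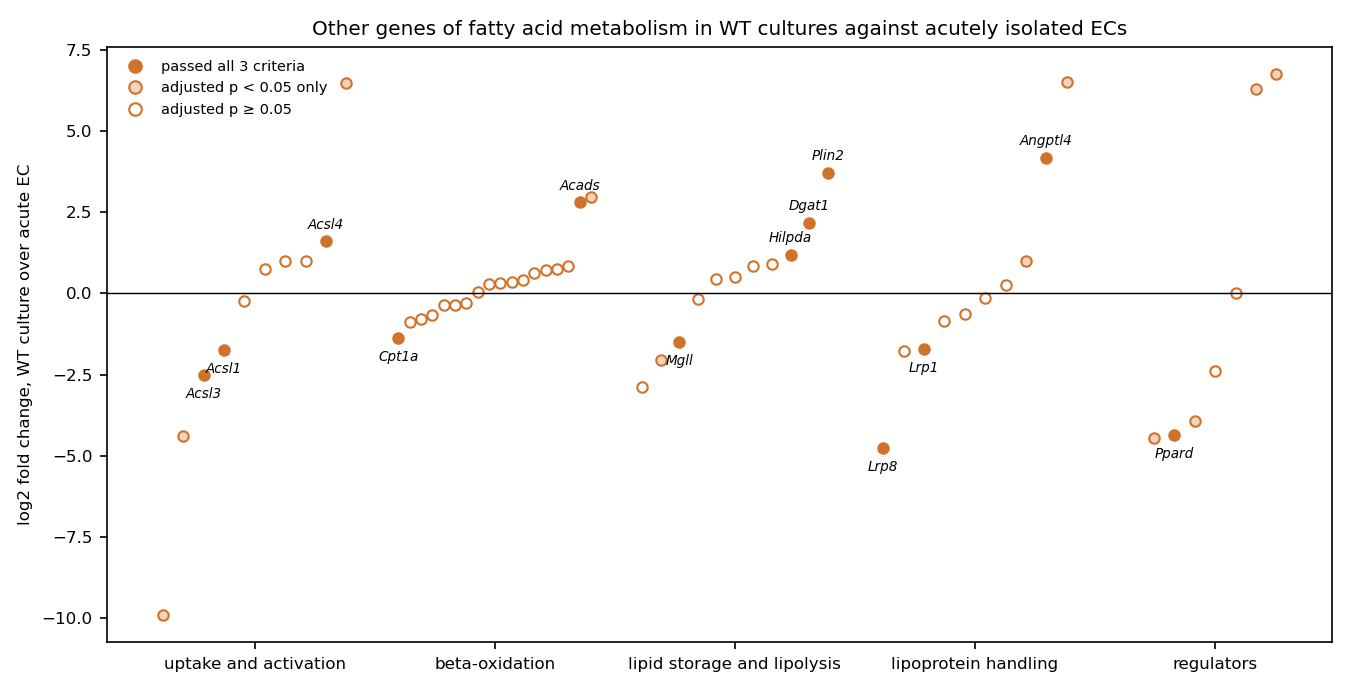
Log2 fold change of the tested genes of 5 lists in WT cultures over acutely isolated ECs; filled points passed all 3 criteria and are named, pale points passed on the adjusted p alone. Angptl4 (4.18) and Plin2 (3.72) lie highest and Lrp8 (−4.78) and Ppard (−4.36) lowest among the named genes; points beyond 6 in either direction belong to genes of low level, some listed at 0 in a group, and are no measure of size.

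In acutely isolated ECs against GFP-negative cells, where 8.30% of all tested genes were called higher and 7.56% lower, the same lists gave 0 genes higher and 4 lower of 10 tested for uptake and activation, 1 and 2 of 18 for beta-oxidation, 3 and 1 of 11 for storage, 3 and 2 of 8 for lipoproteins and 1 and 1 of 7 for regulators. Their medians were −0.27, 0.30, 1.42, 0.16 and −0.09. Fabp3, the binding protein of heart and muscle, had 0 counts in acutely isolated ECs and 311 and 966 in GFP-negative cells, which is at least 501-fold lower with 3 counts taken over the group. Fabp7, the binding protein of glia, was lower (log2 fold change −7.52, adjusted p = 0.001635). Scarb1, the receptor of high density lipoproteins, was higher in acutely isolated ECs by 4.66 (adjusted p = 0.001729), Lrp8 by 4.11 (adjusted p = 0.00211) and Ppard by 3.90 (adjusted p = 0.01366). Apoe, a lipoprotein of glia, was lower (log2 fold change −2.65, adjusted p = 0.007488), with 360 ± 206 TPM (SD, n = 2) against 3092 ± 1880.0 TPM (SD, n = 2).

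Against acutely isolated ECs, where 15.1% of all tested genes were called higher and 11.0% lower, stabilized cultures gave 1 gene higher and 2 lower of 10 for uptake and activation, 1 and 0 of 18 for beta-oxidation, 2 and 0 of 11 for storage, 1 and 1 of 9 for lipoproteins and 0 and 1 of 7 for regulators. Plin2 was at 193 TPM (3.44, adjusted p = 0.000232) and Angptl4 at 386 TPM (4.73, adjusted p = 0.0006484), and Ppard was at 7.49 TPM (−3.12, adjusted p = 0.002417). Between stabilized and WT cultures no gene of the 5 lists was called in the fit of all cultures.

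Over the 14 libraries, the genes whose level followed that of Mfsd2a most closely were Ddc (Pearson r = 0.987), Slc22a8 (0.984), Srarp (0.981), Ccl21a (0.974) and Gm21970 (0.969), out of 8748 genes with a mean of at least 5 TPM on the scale of log2(TPM + 1). Ddc, the decarboxylase of aromatic amino acids, was at 184 TPM in acutely isolated ECs, 2.18 in GFP-negative cells and 0.127 in WT cultures, and Slc22a8, an organic anion transporter, was at 181, 3.70 and 0.129 TPM. With these values 2 acutely isolated libraries carry most of the correlation, and it is given as a description. With a pseudocount of 0.1 in place of 1, 4 of the 5 genes were found again, and with a minimum mean of 1 TPM 3 of 5.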

How the data were processed

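RNA-seq was from acutely isolated ECs, GFP-negative cells, WT cultures and stabilized cultures. Per the labels, the deposited RNA-seq values are estimated counts and TPM per transcript, which the authors made with Salmon 0.14.0 (GRCm38). The deposited ATAC-seq peak lists, which the authors made per library with HISAT2 2.1.0 and MACS2 2.1.2 (mm10), give fold enrichment over local background, which is a ratio, −log10 q-values and a score that was not used. The separate cerebrum libraries were not analysed here, while the brain EC data combine cerebrum and cerebellum, as the study states.

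Transcripts (140198) were summed to genes, and for the 27 symbols with more than 1 identifier the most abundant was kept. Summed counts were rounded and protein-coding genes were fitted per comparison by the quasi-likelihood method of edgeR 4.0.16 (R 4.3.3), after filterByExpr and TMM scaling. This test was run on simulated counts drawn independently for each library. These lack the pairing of wells by experiment, so the run cannot show how the test behaves under it. A call needed at least 5 TPM in every library of the higher group, a log2 fold change beyond 1 in either direction, and a p under 0.05 after Benjamini-Hochberg adjustment. Limma 3.58.1 was run on log2(TPM + 1), and DESeq2 1.42.0 on counts. Other settings were library size scaling, no filter, an offset for transcript length, other sets of libraries, a replicate block, each library left out, and stricter peaks. Mean levels are means over libraries. Peaks within 10 kb of a gene were merged over libraries into open regions. Matching replicate numbers were checked for pairing by the correlation of deviations from group means over 11947 genes. It was under 0.1 for at least 1 pair in each comparison, so that the numbers were not taken to pair the samples. With 2 libraries per group the deviations mirror each other. For acutely isolated ECs and GFP-negative cells it was thus 0.0678 for both pairs. There it cannot tell whether fractions of the same number came from the same sort.

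Besides the 8 genes, those named are the list members that passed all 3 criteria, the 5 genes closest to Mfsd2a and the 2 closest to other members over the libraries, and Pparg, chosen after its values were seen. One gene of the lipoprotein list and its counts are not reported here. The genes, lists and tests were chosen with earlier results of these data known. Isolation methods are from the study's methods text, not from the labels, and a figure legend gives another method for some WT wells. Counting intervals cover counting error only.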

Additional observations from a re-analysis of the deposited data

Results flagged for a closer look

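The difference between stabilized and WT cultures was not alike in both isolation methods for 3 of the 8 genes. By the interaction term of edgeR over 8 libraries of 36 cycles it was larger in method B by 3.73 for Gpihbp1 and by 1.56 for Fabp4 on the log2 scale, and for Slc27a1 it differed by −0.58 (method B less method A). The term passed for 49.6% of 13356 genes, each arm holds 2 wells of 1 experiment, and method, genotype of the WT mice and experiment cannot be told apart. The values for Gpihbp1 and Slc27a1 passed under each of the 5 other settings run, and that for Fabp4 under 4 of 5, with 0.45 (adjusted p = 0.2712) by limma on log2(TPM + 1). No single library stood apart within its group in the 16 groups of 4 to 6 libraries tested for the 8 genes. This rule compares a library with its nearest neighbour, so it cannot flag 2 wells of an experiment that differ together. WT cultures 5 and 6 for Gpihbp1 (0.155 and 0.143 TPM) are such a pair.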

How the results depend on the processing

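The 145 results were recomputed under 1460 alternative values. Of the values that answer a comparison, 37 moved and 249 did not. Of those for single genes and regions, 1066 kept their direction and call, 64 lost the call, 7 gained it, 30 changed sign and 7 moved. For WT cultures against acutely isolated ECs (1866 genes higher, 1409 lower, 1 and 1 of the 8 genes), limma gave 897 lower and wells summed per experiment 834. Method A alone gave 3 of the 8 genes higher and 2 lower, method B alone 2 higher, and the adjusted p alone 3292 and 2937 genes with 3 and 2 of the 8. The median of all genes was 0.10, and 0.30 with library size scaling. For acutely isolated ECs against GFP-negative cells, the offset for length gave 657 higher and limma 460. The genes higher ranged from 663 to 1662 and the members lower from 2 to 4 with 1 library left out. Of the 8 genes, limma and a fit of all 14 libraries gave 2 lower, and the adjusted p alone gave 2 higher with 2980 genes lower. For stabilized against WT cultures (0 and 0), DESeq2 gave 13 and 3, method A 692 and 118 with 1 of the 8 genes lower, method B 138 and 36, and method as a covariate 66 and 10. For stabilized cultures against acutely isolated ECs, limma gave 761 lower, the adjusted p alone 4007 and 3866 with 3 and 3 of the 8, and leaving out 1 library 1 to 2 of the 8 higher.

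With the replicate number as a block, stabilized against WT cultures gave 149 genes higher and 24 lower, and in each comparison with acutely isolated ECs 2 of the 8 genes were lower. The block reversed Slc27a1 (−1.31, 0.14 and −1.59 in WT against acutely isolated, stabilized against WT and stabilized against acutely isolated) and Mfsd2a (0.27 between the cultures), and the call of Lpl against GFP-negative cells was lost (adjusted p = 0.05995). The replicate numbers were not taken to pair the samples, which the check could not decide for acutely isolated ECs and GFP-negative cells. Of stabilized cultures 1 to 4, only replicate 2 correlated best with the WT culture of its own number.

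Other changes of sign, whose cause was not tested, were Mgll (0.095 by limma) and Slc27a1 (−1.30 in method A) in WT cultures against acutely isolated ECs, and Fabp4 against GFP-negative cells (−0.12 with library size scaling, −0.031 by limma, −0.94 to 1.40 with 1 library left out). Between stabilized and WT cultures they were Fabp4 (0.29 by limma, 0.51 in method B, −0.53 to 0.26 with 1 library left out), Mfsd2a (−0.42 to 0.20 with 1 left out), Lpl (−0.92 in method A, −0.36 with the covariate, −0.22 to 0.41 with 1 left out) and Gpihbp1 (2.85 in method B, 0.33 with the covariate). Slc27a1 in stabilized cultures against acutely isolated ECs was −0.36 with the offset, −0.20 by limma and −0.25 to 0.51 with 1 left out. The interaction term of Mfsd2a was −0.36 by limma, a setting added after the data were seen. Cd36 in ECs rests on 40 counts or fewer per library, which limits any statement on its change.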

Other observations

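Outside the comparisons, the genes whose level over the 14 libraries was closest to that of each of the other genes were found by the same measure as for Mfsd2a, and are given as a description. For Gpihbp1 they were Nrarp, a target of Notch signaling (Pearson r = 0.982), and Pttg1, the securin of dividing cells (0.966). For Fabp4 they were Kcne3, a potassium channel subunit (0.968), and Top2a, the topoisomerase of dividing cells (0.964). For Slc27a1 they were the smooth muscle genes Myl9 (0.932) and Tpm2 (0.922). For Cd36 they were Cxcl14 (0.994) and Syt10 (0.994), and for Lpl Ntm (0.994) and Aspn (0.992). For Fabp5 they were Bin1 (0.974) and Npy (0.962), and for Vldlr Tspan2 (0.972) and Khdrbs3 (0.961). With a pseudocount of 0.1, 1 of these 2 genes was found again for Gpihbp1, 0 for Fabp4 and 2 for Slc27a1. With a minimum mean of 1 TPM the numbers were 2, 0 and 1. For Cd36, Lpl, Fabp5 and Vldlr they were 0, 0, 1 and 1 with the pseudocount of 0.1, and 0, 1, 1 and 2 with the minimum of 1 TPM.

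Transcripts of mitochondrial genes took 10.6 to 11.2% of the counts in acutely isolated ECs, 14.9 to 24.2% in GFP-negative cells, 0.667 to 1.58% in WT cultures and 1.62 to 2.58% in stabilized cultures.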
